A study of Mus musculus with 2 samples.

Results

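Peaks of YTHDF2 RNA immunoprecipitation (RIP) that lay over a stop codon were taken from the gene table the authors deposited for mouse C2C12 myotubes. Every entry marked as touching a stop codon was kept and each peak was counted 1 time, which gave 246 peaks in 246 genes. These were 16% (Wilson 95% interval 14.2 to 17.9) of the 1541 peaks in the gene table, and the whole list holds 9271 peaks. The gene table names 1285 genes, of which 19.1% (17.1 to 21.4) had a stop codon peak. C2C12 is an established line of mouse muscle precursor cells, and in low serum the cells fuse into myotubes with many nuclei. Both libraries came from wild-type C2C12 myotubes without treatment and carried batch label 1, and the groups are 1 YTHDF2 RIP library and 1 input library. With 1 library in each group no difference has a replicate check, so values are given with counting intervals and no test was made. The IgG negative control mentioned in the study's design was not analysed here. The protocol words the library steps that follow the pulldown as for DNA, and the total depth of either library is unknown.

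YTHDF2 is a cytoplasmic reader of N6-methyladenosine (m6A), a methyl mark on adenosines inside messenger RNA. It brings marked transcripts to deadenylation and decay, among others through the CCR4-NOT complex and, with the adaptor encoded by Rida, through endonuclease cleavage. In mammalian messenger RNA, m6A is known to be concentrated around the stop codon and in the first part of the 3' UTR, at adenosines within GGAC and related motifs. A stop codon upstream of a later exon junction marks a transcript for nonsense-mediated decay, a surveillance pathway that acts on the ending of translation.

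The stop codons under 13 peaks are shown first, as 30 bases on the strand of the gene with the stop codon in capitals. Fold enrichment is the authors' ratio of RIP over input background at the summit of a peak. All letters come from the GRCm38 reference genome, the same build as mm10, and the stop codons from GENCODE M21. The first 9 genes have the highest fold enrichment among peaks on the stop codon of the main transcript. Tra2a, Phip and Mef2a have the highest among peaks on a stop codon that the annotation places in nonsense-mediated decay transcripts, and Tsc22d2, another of these, is shown because its peak holds an m6A motif.
Anapc10, chr8:79775145-79775174, plus strand: tatcgttcaatacggTGActttaaaatgga
Trmt10c, chr16:56034014-56034043, minus strand: cgcacgtggaaaaggTGAcctaagtgagaa
AC158589.1, chr5:16881955-16881984, plus strand: caacgggagacatttTGActttaaccagaa
Cox7b, chrX:106021806-106021835, plus strand: gaatggagagatcagTAGtcgtgccagctg
Tex30, chr1:44086878-44086907, minus strand: gaaatggacaagaaaTAAttgtcattaaaa
Ttc32, chr12:9035884-9035913, plus strand: gccgagaaaagttacTGAaacctttagctt
Serf1, chr13:100114020-100114049, plus strand: cagacaacagaaaaaTGAtgactggctttt
Rida, chr15:34484467-34484496, minus strand: cctttcatcaaggcaTGActataagtagcc
Psmc6, chr14:45348684-45348713, plus strand: gactacaaacctgtgTGAttcactagaagg
Tra2a, chr6:49252953-49252982, minus strand: agaagattggtcagaTAGaagcacttgaat
Phip, chr9:82915980-82916009, minus strand: ccattcgttctggatTAAtggaactggaaa
Mef2a, chr7:67293684-67293713, minus strand: gttcttcgcacaaccTAAagctaacttctt
Tsc22d2, chr3:58437342-58437371, plus strand: aggaggaatgtgacaTAAtaatgatcgaaa

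The motif GGACN, with N being A, C or T, is a core form of the m6A consensus. It was searched on the strand of the gene, and 5 peaks that hold 1 such site each are shown as 21 bases with the motif in capitals. The number after each gene is the spliced distance in bases from the stop codon to the inner adenosine of the motif, negative on the 5' side.
Anapc10, 12, chr8:79775164-79775184, plus strand: tttaaaatGGACAgaagtgaa
Psmc6, -14, chr14:45348675-45348695, plus strand: tccaagctGGACTacaaacct
Tex30, -8, chr1:44086890-44086910, minus strand: actgaaatGGACAagaaataa
Tsc22d2, 74, chr3:58437423-58437443, plus strand: gcttctaaGGACTgaatgttg
S100a10, 95, chr3:93564489-93564509, plus strand: gcagatcaGGACCcttaggaa
In the exonic part of the peaks of Trmt10c, AC158589.1, Cox7b, Ttc32, Serf1, Rida, Tra2a, Phip and Mef2a these letters were not found.

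The highest fold enrichment over a stop codon was that of Anapc10, a subunit of the anaphase-promoting complex, a ubiquitin ligase of the cell cycle. Its peak, 252 bases wide, held 41 RIP fragments at the summit over an input background of 1.75, a fold enrichment of 13.8 (exact 95% Poisson interval 10.0 to 18.6). The summit lay 7 bases 3' of the stop codon. Intervals on fold enrichment cover counting error of the RIP fragments alone, with the background held fixed. Trmt10c, which encodes a mitochondrial transfer RNA methyltransferase that is also a subunit of mitochondrial RNase P, had 65 RIP fragments over a background of 4, a fold enrichment of 11.9 (9.23 to 15.1). The gene model AC158589.1 had 25 fragments over 1.08, the lowest background the caller used, a fold enrichment of 11.3 (7.47 to 16.4). Its summit, 98 bases past the stop codon along the genome, lay beyond the end of the annotated 3' UTR of 80 bases. Cox7b, a subunit of cytochrome c oxidase, had 59 fragments over a background of 4, a fold enrichment of 10.8 (8.28 to 13.9). The intervals of these 4 peaks overlap, so their order is not resolved by the counts.

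Tex30 and Ttc32 each had 22 RIP fragments over the same lowest background of 1.08, and a fold enrichment of 9.99 (6.44 to 14.9). Their intervals are the wide ones of a small count. Serf1 had 52 fragments over 4, a fold enrichment of 9.56 (7.19 to 12.5). Rida, whose protein links YTHDF2 to an endonuclease, had 40 fragments over 3 and a fold enrichment of 9.25 (6.68 to 12.5). Psmc6, an ATPase of the proteasome's regulatory particle, had 122 fragments over 12, a fold enrichment of 8.52 (7.09 to 10.2), and the smallest q-value of the stop codon peaks (−log10 q of 57.2). Psmc6 is thus the better counted of these peaks, and its interval is the narrower for it. Tstd3 had 67 fragments over 7, a fold enrichment of 7.66 (5.97 to 9.70), and Commd3, among the 6 smallest q-values, had 137 over 23, a fold enrichment of 5.18 (4.35 to 6.12).

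The peaks with most RIP fragments were others. S100a10, the small calcium-binding partner of annexin A2, had 254 fragments over an input background of 130, a fold enrichment of 1.75 (1.54 to 1.98). Ogn, which encodes the proteoglycan mimecan, had 216 fragments over 67, a fold enrichment of 2.87 (2.50 to 3.28). Capza2, an actin capping protein subunit, had 212 fragments over 100, a fold enrichment of 1.90 (1.65 to 2.17). Sfr1, a DNA repair factor, had 199 over 46, a fold enrichment of 3.83 (3.32 to 4.40), above the median of the stop codon peaks and among the 6 smallest q-values. Rpl14, a protein of the large ribosomal subunit, had 198 over 82, a fold enrichment of 2.16 (1.87 to 2.48). The others of the 10 with most fragments were Pfdn1, a prefoldin subunit, at a fold enrichment of 3.37, Gm6563 at 2.36, Tceal8 at 2.07, Sf3b5 at 2.04 and Tceal9 at 1.83. Of the 10, Sfr1 and Pfdn1 lay above the median fold enrichment and 8 below it. The lowest fold enrichment was that of Ccng1, cyclin G1, with 126 fragments over 78, a fold enrichment of 1.45 (1.21 to 1.72), before Shox2 and Brinp3 (each 1.64) and Asb8 (1.66). Neither library is split by cell, so more RNA per cell and more cells with that RNA cannot be told apart.

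**Figure D1:**
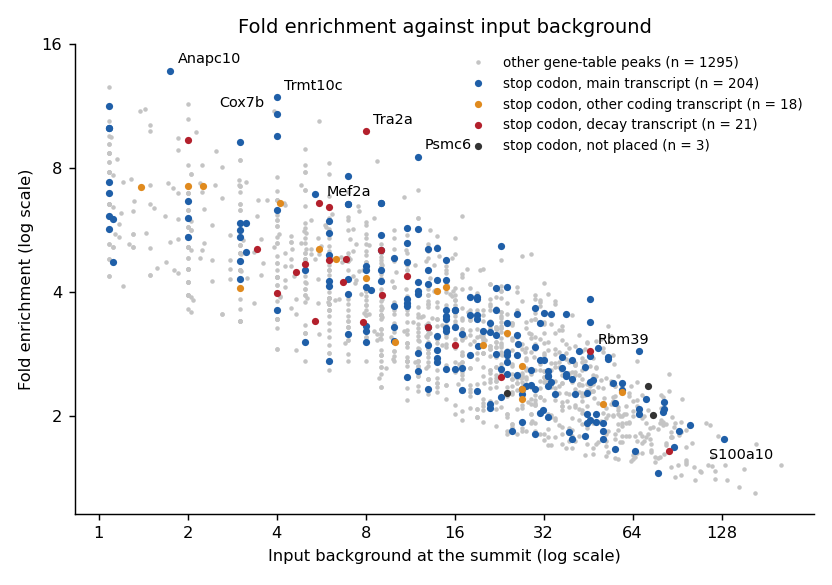
Fold enrichment (log axis) against the input background at the summit (log axis), 1 point per peak. Grey points are the other 1295 peaks of the gene table and coloured points the 246 stop codon peaks, by the transcript whose stop codon they cover. Both sets run down to the right together, from Anapc10 at 13.8 over a background of 1.75 to S100a10 at 1.75 over 130.

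Over all 246 stop codon peaks the median fold enrichment was 3.28 (95% interval of the median 3.01 to 3.53, quartiles 2.48 and 4.52, range 1.45 to 13.8). The other 1295 peaks of the gene table had a median of 3.25 (3.16 to 3.35), so the medians differed by less than their intervals. A fold enrichment of 4 or more was reached by 86 stop codon peaks, 35.0% (29.3 to 41.1), where the background over the gene table is 33.2% and that over the whole list 59.6%. The stop codon peaks' share lies near the first. Median width was 230 bases for stop codon peaks and 231 for the others, and the summit sat at a median 0.50 of the width in both.

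RIP fragments at the summit differed in median by more than the intervals of the medians. Stop codon peaks had a median of 67 (60 to 72, quartiles 42 and 97) against 54 (51 to 58, quartiles 31 and 92) for the other peaks of the table, although the quartiles overlap widely. The input background was 16 (14 to 20) against 14 (13 to 15.6). Median −log10 q was 9.78 (8.85 to 10.8) against 7.87 (7.30 to 8.24). Peaks in 3' UTRs away from a stop codon (690) had a median of 61 fragments (56 to 66) and a median fold enrichment of 3.14 (3.02 to 3.25), near the stop codon peaks. Peaks in coding sequence away from stop and start codons (351) had 39 fragments (35 to 46) and a fold enrichment of 3.53 (3.32 to 3.77).

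Because fold enrichment falls with background, the peaks were also set side by side within ranges of background. At a background of 8 to 16 the median fold enrichment was 3.95 (3.44 to 4.24, n = 61) for stop codon peaks and 3.43 (3.31 to 3.54, n = 279) for the others. At 32 or above it was 2.27 (2.07 to 2.42, n = 63) against 2.09 (2.01 to 2.18, n = 310), and at 16 to 32 it was 2.81 (2.59 to 3.14, n = 61) against 2.79 (2.63 to 2.91, n = 285). The stop codon median was the higher one in all 6 ranges, with overlapping intervals in each. At 1 to 2, 16 stop codon peaks had a median of 7.07 (6 to 9.99) and 119 other peaks one of 6.21 (5.55 to 6.53).

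Of the 246 peaks, 205 touched coding sequence and 3' UTR beside the stop codon, 30 the 3' UTR and 8 coding sequence alone. In 2 peaks, those of Mbtps2 and Tmcc1, a start codon was touched as well. They lay on 20 chromosomes, with 2 to 23 peaks on each, and 120 of the placed stop codons were on the plus strand and 123 on the minus strand. In 1 case a peak spanned stop codons of Evi2 and Evi2b (fold enrichment 5.86) and another those of Mtf2 and Tmed5 (2.77), so their reads cannot be split between the genes. In 5 peaks, those of Dph3, Cox11, Zbtb11, Mtf2 and Mak16, an exon of a coding gene on the opposite strand also lay under the peak, and the protocols do not say whether the reads keep their strand.

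The table's mark says that a stop codon was touched and not which one. Of the 246 peaks, 204 (82.9%, 77.7 to 87.1) covered the stop codon of the main transcript of the gene, that is the complete coding transcript ranked first by the annotation. Another 18 (7.32%, 4.68 to 11.3) covered the stop codon of a further protein-coding transcript. In 21 peaks (8.54%, 5.65 to 12.7) the stop codons covered belonged to nonsense-mediated decay transcripts and to no coding one. The remaining 3, those of Luc7l, Gm6563 and Pcna-ps2, could not be placed on an annotated stop codon. This grouping was made after the values had been seen.

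Peaks off the main stop codon had a lower median input background and a higher median fold enrichment, and the groups were not matched for background. For the 21 peaks on decay stop codons the median background was 6.88 (5.39 to 11) against 18.5 (15 to 22) for the 204 on main stop codons, and the median fold enrichment 4.36 (3.38 to 5.05) against 3.18 (2.87 to 3.44). A fold enrichment of 4 or more was reached by 12 of 21 (57.1%, 36.5 to 75.5) against 64 of 204 (31.4%, 25.4 to 38). The intervals of background do not overlap, and those of fold enrichment and of the shares do. At a background of 4 to 8 the median fold enrichment over all stop codon peaks was 4.79 (4.26 to 6.32, n = 33). At 8 to 16 it was 3.95 (3.44 to 4.24, n = 61). Both ranges hold decay stop codon peaks, whose median of 4.36 lay between these values. A comparison at like background was not made. The 18 peaks on other coding transcripts had a median background of 12 (4.09 to 27), an interval that includes that of the main stop codon peaks. Their median fold enrichment was 4.05 (2.64 to 5.08), with 10 of 18 (55.6%, 33.7 to 75.4) at 4 or more. Peaks of the list outside the gene table also had a low background (median 4.28) and a high fold enrichment (4.58). In 13 of the 21 genes the decay stop codon lay within an intron of the main transcript, in 7 within an exon and in 1 outside it. None of the 21 was in the last exon of its transcript, whereas 203 of the 204 main stop codons were. The decay label rests on a stop codon upstream of a later exon junction, so this contrast comes with the label.

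Tra2a, which encodes a splicing activator of the serine- and arginine-rich kind, had the highest fold enrichment of this group, at chr6:49252643-49253097. It held 97 RIP fragments over an input background of 8, a fold enrichment of 9.81 (7.98 to 11.9), with the summit 149 bases 3' of a TAG at 49252965. Another peak of Tra2a, in the 3' UTR, had 114 fragments over a background of 59 and a fold enrichment of 1.73. The Tra2a peaks thus had like numbers of RIP fragments, and the input was the lower one at the decay stop codon. Phip had 30 fragments over 2 (9.33, 6.41 to 13.2). Mef2a, a transcription factor of muscle differentiation, had 47 fragments over 5.58 and a fold enrichment of 6.58 (4.88 to 8.70). The summits of the Phip and Mef2a peaks lay outside the exons of the decay transcript.

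Among the other peaks over decay stop codons, fold enrichment ran from 6.44 (Copz2, a coatomer subunit) to 1.64 (Brinp3). Casp4, an inflammatory caspase, was at 5.05, Trip12, a ubiquitin ligase, at 4.81 and Tsc22d2 at 4.77. By RIP fragments Brinp3 (156 over 85) and Rbm39 (149 over 46, fold enrichment 2.87) stood above Tra2a. Over the gene bodies of Brinp3 and Phip lay 159 and 24 peaks of the whole list. Srrm1, a splicing coactivator, was at 2.97 and Sf3b1, a core protein of the U2 particle, at 2.48.

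Where the summit could be measured along the spliced transcript (229 peaks), its median position was 39 bases 3' of the stop codon (95% interval of the median 27 to 46, quartiles -9 and 83). Downstream of the stop codon were 162 summits (70.7%, 64.5 to 76.3), 65 were upstream and 2 within the codon. Within 50 bases of it lay 117 (51.1%) and within 100 bases 178 (77.7%). The peaks reached a median of 75 bases into the coding side and 139 bases into the 3' UTR. Since a peak had to touch the stop codon to be counted, the distance is limited by the rule itself. The rule does not set the direction of the offset. Exon junctions on the coding side and the transcript's end on the other can limit it. For the 202 measurable peaks on main stop codons the share downstream was 70.8% (64.2 to 76.6). Of the 21 peaks on decay stop codons only 11 were measurable, and 10 of these 11 had the summit downstream. In 14 placed peaks the summit lay outside the exons of the transcript taken. Those of Phip, Mef2a, Copz2, Trip12, Rbm39 and Brinp3 were among them.

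The farthest summits on the 5' side were those of Med7, a Mediator subunit, at -435, of Ccdc127 at -366, of Rwdd2a at -176 and of Lurap1l at -147. On the 3' side they were those of Nudt19 at 419, Smarca2, a chromatin remodelling ATPase, at 324, Cdc40, a splicing factor, at 312 and Fgf7, a fibroblast growth factor, at 291. The widest peaks were those of Fgf7 (739 bases), Nudt19 (667), Med7 (647) and Fam213a (622). In 23 peaks the stop codon lay within 10 bases of an edge.

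**Figure D2:**
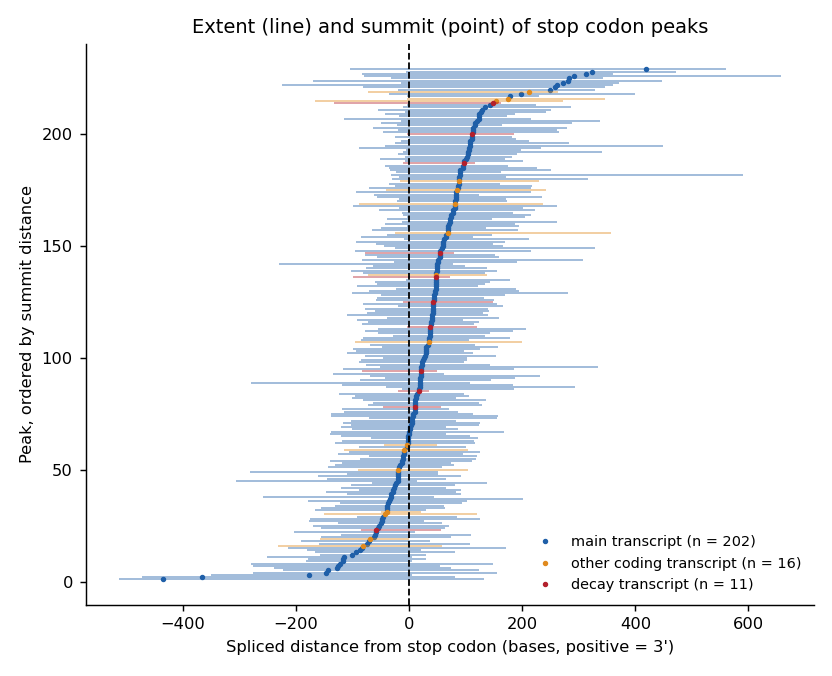
The 229 stop codon peaks with a measurable spliced distance, each as a line from its first to its last base with a point at the summit, ordered by summit distance (vertical axis, order) from the stop codon (horizontal axis, bases, positive towards the 3' end). Colours give the transcript class, and most points lie right of the dashed line at the stop codon, with a median of 39 bases.

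To free the position from that rule, the summits of all peaks were counted along the main transcripts of the genes in the table, whether or not the peak touched a stop codon. The 100 bases after the stop codon held 0.910 summits per kb (exact Poisson interval 0.750 to 1.09, 114 summits). The window from 100 bases before it up to its last base held 0.388 (0.288 to 0.511), and the 100 bases before those 0.258 (0.178 to 0.363). Farther 3', density fell to 0.562 (0.436 to 0.713) at 101 to 200 bases and 0.298 (0.250 to 0.352) at 501 to 1000 bases. The interval of the first 100 bases after the stop codon does not overlap that of any of the other windows. Counting only peaks enriched at least 4 times over input, the same 100 bases held 0.271 (0.188 to 0.379), the window before held 0.147 (0.0887 to 0.230), the one after 0.141 (0.0819 to 0.225) and that at 501 to 1000 held 0.0777 (0.0544 to 0.108). There the intervals of the neighbouring windows overlap that of the first 100 bases.

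Over all coding genes, with or without a peak in the table, the first 100 bases held 0.0565 summits per kb (0.0466 to 0.0679), those at 101 to 200 bases 0.0371 (0.0288 to 0.0471), an overlapping interval, and those at 501 to 1000 bases 0.0249 (0.0210 to 0.0295). Upstream windows are crossed by exon junctions more often than 3' UTR windows. When only bases of the exon that holds the stop codon were counted, the window just before the stop codon had 0.438 (0.325 to 0.578) and the one just after it 0.939 (0.775 to 1.13). These counts describe 1 pair of libraries and were chosen after the data had been seen.

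**Figure D3:**
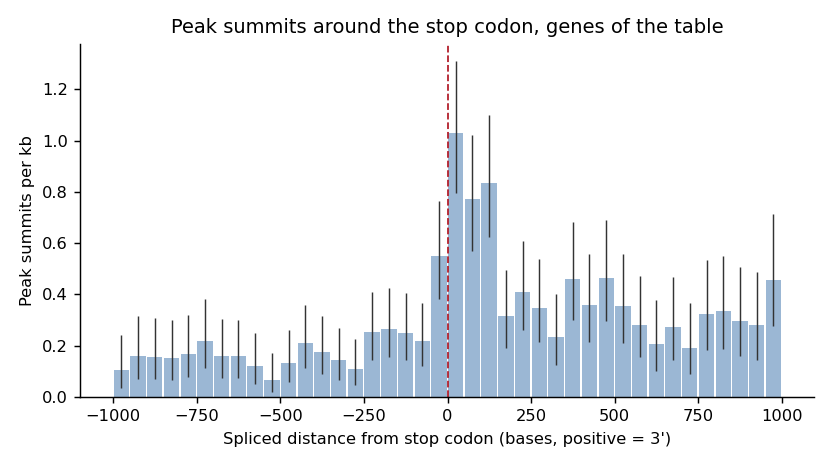
Peak summits per kb in windows of 50 bases along the main transcripts of genes in the table, by spliced distance from the stop codon (dashed line; bases, positive towards the 3' end), with exact 95% Poisson intervals. Density rises at the stop codon, is highest in the window that starts there (1.03 per kb) and stays raised to about 150 bases before it returns to the level of the rest of the 3' UTR.

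The density of the GGACN motif in the peaks was close to that beside them. The 243 placed peaks held 180 sites, 3.05 per kb. Windows of equal length on either side on the same transcript, cut at transcript ends, held 2.81 per kb, a ratio of 1.09 (0.933 to 1.26). Full length was reached by 232 windows on the coding side and 165 on the 3' side, so the coding side weighed more in the 2.81. The sides differ. Windows on the coding side held 3.43 sites per kb and windows on the 3' UTR side 2.04, with the peaks between them. With windows taken along the genome instead, so that introns and intergenic sequence enter, the ratio was 1.38 (1.19 to 1.59). The intervals of these ratios cover counting error of the sites in peaks alone, with the density beside them held fixed. The broader DRACH consensus (D any base but C, R a purine, H any base but G), of which GGACN is one form, stood at 21 per kb in peaks and 20.9 beside them.

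At least 1 GGACN site was present in 120 of 243 peaks (49.4%, 43.2 to 55.6). Counting only windows of full length beside them, 57.3% (50.9 to 63.5) of 232 on the coding side had one. On the 3' side it was 40% (32.8 to 47.6) of 165, where short 3' UTRs drop out. On the opposite strand of the same peaks the motif stood at 2.66 per kb. Windows of 201 bases centred on the main stop codon held a motif in 51.3% (44.4 to 58.1) of 199 genes with a peak there, in 52.1% (49 to 55.1) of 997 other genes of the table and in 55.3% (54.6 to 56.0) of 18071 genes without a peak in the table. Their median GC contents were 44.8%, 45.3% and 50.7%. Peaks with a motif had a median fold enrichment of 3.03 over a background of 19, and peaks without one 3.53 over 13. A match is a stretch of letters and not a measured methylation site.

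**Figure D4:**
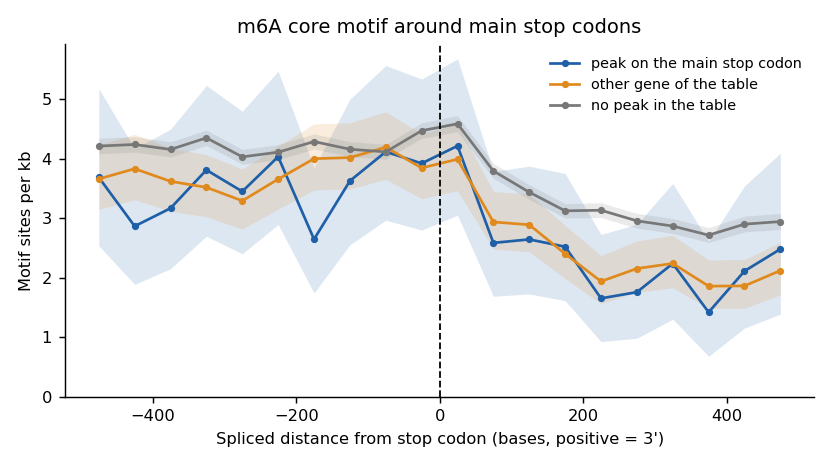
Sites of the m6A core motif per kb (vertical axis) in windows of 50 bases by spliced distance from the main stop codon (horizontal axis, bases). Lines are genes with a peak on the main stop codon, other genes of the table and genes without a peak in the table, and bands are exact 95% Poisson intervals. All 3 lines step down within 100 bases after the stop codon, and the first 2 overlap throughout.

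The stop codons under the peaks were TGA in 102 (42.0%, 35.9 to 48.3), TAA in 76 (31.3%, 25.8 to 37.4) and TAG in 65 (26.7%, 21.6 to 32.6) of 243. The other genes of the table had TGA in 42.6%, TAA in 36.5% and TAG in 20.9%. The interval for TAG, 18.5 to 23.5 in those other genes, overlaps that of the stop codon peaks. Over all 21574 coding genes TGA made up 49.2%, so the genes of the table as a whole had a lower share of TGA.

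Genes with a stop codon peak had shorter 3' UTRs than the other genes of the table. Their median 3' UTR length was 792 bases (quartiles 328.5 and 1724, n = 244), against 1737 bases (849 and 3003, n = 1033) for the others. The contrast with all coding genes is smaller. Among genes with a full window of 201 bases around the stop codon, the median was 770 (329 and 1626.5) for those with a peak on the main stop codon and 944 (383 and 1964.5) for all coding genes. Of the table genes with a 3' UTR of 250 to 499 bases, 66 of 139 had a stop codon peak (47.5%, 39.4 to 55.7). Of those with 4000 bases or more, 13 of 164 had one (7.93%, 4.69 to 13.1). Under 250 bases it was 27.0% (30 of 111). The ranges between fell in order, with 22.9% at 500 to 999, 14.9% at 1000 to 1999 and 11.9% at 2000 to 3999 bases.

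A gene enters the table through a peak anywhere, and the share of coding genes in the table rose with 3' UTR length from 2.12% to 13.2%. Counted over all coding genes, a peak on the main stop codon was present in 1.89% (1.47 to 2.43) of genes with 250 to 499 bases. It was present in 0.967% (0.708 to 1.32) at 500 to 999 and in 0.803% (0.437 to 1.47) at 4000 or more. Above 500 bases the decline seen among table genes was therefore not resolved over all coding genes, and only the range of 250 to 499 bases stood above its neighbours. The range under 250 bases was the lowest, at 0.534% (0.370 to 0.771).

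**Figure D5:**
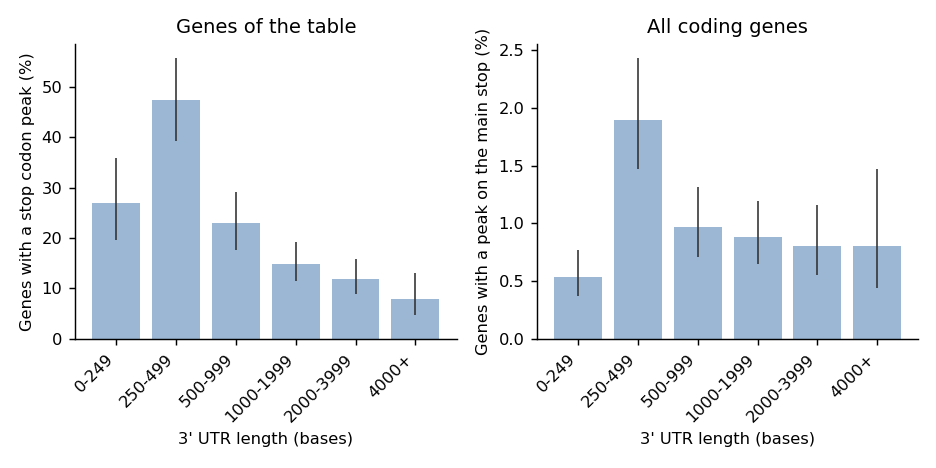
Percent of genes with a stop codon peak by 3' UTR length, for genes of the table (left) and percent of all coding genes with a peak on the main stop codon (right), with Wilson 95% intervals. The left bars fall from 47.5% at 250 to 499 bases to 7.93% at 4000 or more, while the right bars peak at 1.89% in the same range and are level from 500 bases on.

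The share of table genes with a stop codon peak ran from 0 to 63.6% between gene groups, beside 19.1% over all table genes. Proteasome genes, which encode the protease that degrades ubiquitin-marked proteins, had it in 7 of 11 (63.6%, 35.4 to 84.8). Values in brackets after a gene are its fold enrichment and interval. After Psmc6 the genes were Psma7 (4.73, 3.65 to 6.04), Psmb6 (4.26, 2.96 to 5.95) and Psma2 (3.44, 2.64 to 4.41), subunits of the core particle, the lid deubiquitinase Psmd14 (3.51, 2.76 to 4.4), and the assembly factors Psmg3 (2.60) and Psmd10 (2.49). All 7 were on the main stop codon, with summits from -46 to 86 bases of it. The other 4 proteasome genes of the table, Psma3, Psmd7, Psmd11 and Psmg2, had their peaks elsewhere.

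Respiratory chain genes had a stop codon peak in 6 of 13 (46.2%, 23.2 to 70.9). After Cox7b came the ATP synthase component 2010107E04Rik (now Atp5mpl, 5.88, 3.89 to 8.55), the complex II assembly factor Sdhaf4 (4.90, 3.49 to 6.70) and the complex I subunit Ndufb3 (4.61, 3.39 to 6.13). Atp5f1, an ATP synthase subunit, was better counted, with 152 fragments over 38 and a fold enrichment of 3.53 (3 to 4.14), and Cox11, a copper chaperone of cytochrome c oxidase, was at 3.16 with 27 fragments. Of mitochondrial translation genes 4 of 13 had one, Trmt10c and the mitoribosomal proteins Mrpl13 (3.35), Mrpl53 (3.14) and Mrpl12 (2.40). Of cytosolic ribosomal protein genes 3 of 7 had one, Rps20 (2.59) and Rpl14 (2.16) among them, and none reached a fold enrichment of 4.

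The median 3' UTR of the table genes was 503 bases for the proteasome list and 312 for the respiratory chain list. The latter lies in the range of 250 to 499 bases where 47.5% of table genes had a stop codon peak, and the former just above it, where 22.9% had one. Several of the lists with long 3' UTRs had few. As listed, ubiquitin conjugation and ligase genes (median 3' UTR 1787.5 bases) had a stop codon peak in 3 of 36 (8.33%, 2.87 to 21.8). These were Anapc10, the nuclear ligase Trim24 (2.13) and the conjugating enzyme Ube2r2 (1.68). That list leaves out Trip12, Rchy1 and Cnot4, which had a stop codon peak too. In the authors' pathway of ubiquitin mediated proteolysis 4 of 20 genes had a stop codon peak (20%, 8.07 to 41.6). Zinc finger genes (1825 bases) had one in 2 of 42 (4.76%, 1.32 to 15.8), Zfp930 (4.30) and Zfp326 (3.22). None was found among the 6 TGF-beta pathway genes of the table (4151 bases) or the 4 insulin and mTOR pathway genes (4009.5 bases), and for such small groups the upper limits are 39% and 49%.

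Nuclear pore genes had the shortest median 3' UTR of the lists, 219 bases over their table genes, and a stop codon peak in 0 of 5 (upper limit 43.4%). That length lies in the range under 250 bases, where 27.0% of table genes had one, a share below that limit. Splicing factor genes, as listed, did not follow the order by length. Their median was 1616.5 bases, and 10 of 22 had a stop codon peak (45.5%, 26.9 to 65.3), where 14.9% of table genes with 1000 to 1999 bases had one. Only 3 of the 10, Rbm18 (2.33), Rbm26 (2.09) and Sf3b5 (2.04), were on the main stop codon. Tra2a, Rbm39 and Sf3b1 were on decay stop codons, Luc7l3 (4.11), Hnrnph1 (2.28) and Luc7l2 (2.32) on stop codons of another coding transcript, and Luc7l (2.27) was not placed. In the proteasome, respiratory chain, mitochondrial translation and ribosomal lists every stop codon peak was on the main stop codon, and over all 246 peaks the main share was 82.9%. With 10 genes this is a description of the list, which is not complete. It leaves out Cdc40, on the main stop codon, and Srrm1, on a decay stop codon. Dhx15, Isy1 and Lsm2, stop codon genes of the authors' spliceosome pathway, are not in it either. The share on the main stop codon thus depends on which genes are listed.

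Of the listed genes for muscle regulators and sarcomere proteins, 3 of 7 in the table had a stop codon peak. Besides Mef2a these were the slow troponin T gene Tnnt1, with 36 fragments over 10 and a fold enrichment of 3.04 (2.15 to 4.17), and the fast troponin I gene Tnni2, with 79 over 40 and 1.76 (1.40 to 2.19). Csrp3, a muscle gene that the list leaves out, had a peak on its main stop codon. It held 15 fragments over 1.08, a fold enrichment of 6.96 (4.11 to 11.2). Of the 13 myotube markers listed, 4 (Tnnt1, Tnni2, Mylpf and Neb) were in the table, and markers of neurons, endothelium and immune cells had no peak there. Of the myoblast and reserve cell markers Hgf and Bcl2 were in the table, and of the fibroblast markers Col3a1. Of all these markers, Tnnt1 and Tnni2 alone had the peak at the stop codon. The files hold no expression values, so the cell type could not be checked further.

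Among the listed genes of RNA decay, 2 of the 5 in the table had a stop codon peak (40%, 11.8 to 76.9). That interval includes the 19.1% of all table genes. The 2 were Rida and Cnot4, a ubiquitin ligase associated with CCR4-NOT (29 fragments, 4.52, 3.08 to 6.41). In the authors' RNA degradation pathway 2 of 9 had a stop codon peak (22.2%, 6.32 to 54.7), Cnot4 and Lsm2, the latter not on the list. None of the 7 table genes that write, erase or read m6A, Ythdf3 and Ythdc2 among them, had one, which allows a share of up to 35.4%. In vesicle traffic it was 5 of 18, with Copz2 (6.44), Arl6 (5.93) and Tmed5 (3.95) above Vamp5 (2.44) and Vamp8 (1.93). Of the initiation factor genes 1 of 9 had one, Eif5b (3.13).

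The shares were also counted over the pathways of the authors' deposited table. In the 4 pathways at an FDR under 0.05 there, stop codon genes were 4 of 20 for ubiquitin mediated proteolysis (20%, 8.07 to 41.6; Anapc10, Trip12, Rchy1 and Ube2r2), 3 of 26 for the actin cytoskeleton and 4 of 33 for pathways in cancer. For focal adhesion they were 0 of 23 (upper limit 14.3%). In pathways that did not pass that FDR they were 5 of 8 for the proteasome (62.5%, 30.6 to 86.3), 7 of 13 for the spliceosome (53.8%, 29.1 to 76.8) and 4 of 6 for oxidative phosphorylation (66.7%, 30 to 90.3). These were picked from 219 pathways with no set rule, and others had none, such as endocytosis (0 of 21) and Wnt signalling (0 of 15). The stop codon genes of the proteasome and oxidative phosphorylation pathways are also in the lists above, so these shares are not separate support. Ubiquitin mediated proteolysis lay near the 19.1% of all table genes, and the intervals of the first 3 pathways include that share.

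Of the stop codon peaks, 190 were the sole table peak of their gene, and 55 genes had another peak away from a stop codon. In 29 of the 55 (52.7%, 39.8 to 65.3) the stop codon peak had the higher fold enrichment. In Trmt10c the other peak, in coding sequence, had 57 fragments and a fold enrichment of 5.23, against 65 and 11.9 at the stop codon. In Tmed5 the order was the opposite, with 10.4 in the 3' UTR and 3.95 at the stop codon. A start codon peak was also present in 12 genes, among them Sclt1, with 8.87 at the start codon and 4.75 at the stop codon, and Plaa, with 2.48 and 2.77. Rbm26 and Phip had most table peaks, 6 each, and in Rbm26 the stop codon peak (2.09) was below its best other peak (3.47).

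Alkbh1, a nucleic acid dioxygenase, and Tmed5, a cargo receptor of the early secretory pathway, were the genes with 2 stop codon peaks. In Alkbh1 a peak at chr12:87438480-87438758, on a decay stop codon, had 43 fragments (3.93, 2.87 to 5.25), and one at chr12:87443476-87443668, on another coding transcript, had 68 (2.96, 2.31 to 3.74). The intervals of the 2 peaks overlap.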

How the data were processed

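RNA from 1 YTHDF2 RIP library and 1 input library of C2C12 myotubes was sequenced as paired ends. Bowtie was the aligner (mm10) and MACS the peak caller, per the series' design. The submitters' processing notes also list DiffBind, deepTools, HOMER, Picard, Trim Galore and FastQC. Their settings, and any version, were not given in the sources used here. A peak list was deposited by the authors and gives the summit's pileup signal, the fold enrichment as a linear ratio over input, and −log10 of the p-value and q-value, per the file headers. Their gene table pairs peaks with genes and elements, and their deposited pathway table gives counts of annotated and of peak genes with a p-value and an FDR. A count and percent of peaks per element was also deposited by the authors. Per-peak values come from the authors and served to describe and filter peaks of that list.

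Pileup values were whole multiples of 0.9 (tolerance 1e-06) for 100% of peaks, and 1 step was read as 1 RIP fragment. The input background is pileup plus 1 over fold enrichment, minus 1. A Poisson tail with it gave the deposited p-value (−log10 scale, within 0.01) for 100% of peaks. PCR copies are not independent molecules, so intervals cover counting error only, and total depth is unknown. Coordinates are 1-based mm10. Sequence came from GRCm38 and transcripts from GENCODE M21, where 1264 of the 1285 table genes were matched by symbol, 12 by synonym and 4 by position, and 5 were not matched. The main transcript was ranked by completeness, principal isoform tag and coding length. Overlap needed 1 base. Shares carry Wilson and densities exact Poisson 95% intervals. Scripts ran in Python 3.11.15 with pandas 2.3.3, numpy 2.4.6, scipy 1.17.1 and pysam 0.24.0 and were tested on simulated data.

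The peaks and gene lists were chosen with earlier results of these data known. Named genes were drawn from the 12 stop codon peaks of highest fold enrichment, the 10 of highest pileup, the 6 of smallest q-value, the 4 of lowest fold enrichment, the 4 widest, the 4 farthest to each side of the stop codon, genes with more than 1 stop codon peak, those with a start codon, up to 6 per pathway, up to 4 per list and up to 6 genes with most other peaks. Genes named beyond it, on decay or other transcripts and within lists, were chosen after their values were seen. Alternatives covered fold, q-value, transcript, window and comparison choices.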

Additional observations from a re-analysis of the deposited data

How the results depend on the processing

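Of 49 alternatives to 14 results, 39 stayed within the interval of the value reported, 10 moved outside it and none reversed a called value. Values whose interval spans no difference did change direction. The difference in median fold enrichment was 0.0338, but -0.0522 with 1 peak per gene and -0.202 against coding sequence peaks. The motif ratio of 1.09 was 0.976 among peaks enriched at least 4 times. The share of table peaks over a stop codon was 13.3% when the stop codon of 1 transcript per gene was required and 7.40% within the 100 bases around the summit, both by a narrower definition. The difference in median RIP fragments was 23 against coding sequence peaks alone, in place of 13. The share at a fold enrichment of 4 or more was 41.2% among stop codon peaks at a q-value of 1e-05 or less, in place of 35.0%. For the other gene-table peaks this share was not counted at that q-value. The medians of fold enrichment differed there by 0.00419 (-0.247 to 0.357). The ratio of the GGACN motif in peaks to that beside them was 1.38 with windows along the genome. Among the peaks enriched at least 4 times, TGA made up 48.8%, the 3' UTR difference was -1218 bases in place of -945, and decay stop codons 14%. Summits within 100 bases of the stop codon stood at 0.645 per kb, at 0.208 for those peaks alone and at 0.0395 over all coding genes, where fewer peaks or more genes enter. Where no construction is named, the cause was not tested. The summit density and the decay stop codons were added after the data had been seen. No paired analysis was possible because each group has 1 library, and no replicate could be left out. The low counts of peaks such as Tex30 and Ttc32 limit their folds, and expression, strand and the IgG control were not analysed here.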
